A study of Mus musculus with 6 samples.

Results

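The 10 genes of de novo fatty acid synthesis described here were chosen by name (Srebf1, Acly, Acaca, Acacb, Fasn, Scd1, Elovl5, Elovl6, Me1 and Thrsp), and all 10 were found among the 55487 gene identifiers of the deposited tables. The data were RNA sequencing read counts from cultured primary mouse hepatocytes that had received no treatment. WT mice carried no transgene. Alb/MDA-9 mice were heterozygous littermates on the same B6CBAF1 background, and carried a C-terminally HA-tagged human syntenin, MDA-9/SDCBP, a scaffold protein that was expressed from an albumin enhancer and promoter, which is active in hepatocytes. All mice ate regular chow. Each genotype had 3 libraries, numbered 1 to 3, and no age is given. Nothing says that the libraries of a genotype came from separate animals or cultures. The p-values therefore set the genotype difference against the scatter of these libraries only, and some of that scatter may be technical.

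De novo lipogenesis builds fatty acids from carbohydrate. Citrate exported from mitochondria is split to acetyl-CoA by ATP citrate lyase (Acly), carboxylated to malonyl-CoA by acetyl-CoA carboxylase (Acaca, Acacb), and joined into palmitate by fatty acid synthase (Fasn) with NADPH from sources that include malic enzyme (Me1). Elovl6 then lengthens palmitate, Scd1 puts in a double bond, and Elovl5 lengthens polyunsaturated chains. In liver the pathway is switched on after feeding by insulin through the transcription factor gene Srebf1 and by glucose through ChREBP, encoded by Mlxipl. Thrsp, also called Spot14, encodes a small protein that promotes lipogenesis and responds to thyroid hormone and carbohydrate.

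Each library held 16403918 to 19046739 gene reads on the annotated strand, and each of the 10 genes had between 267 and 31381 reads in every library. Values are read counts per 1e+06 reads (CPM) scaled by TMM factors unless stated. Albumin (Alb) ranged over 54048 to 58379 CPM for WT and 55090 to 70170 CPM for Alb/MDA-9, and of 9 hepatocyte markers matched 1 was higher and 2 were lower (3 higher without Alb/MDA-9 3, 2 with DESeq2, voom or no filter, and 0 without WT 2 or with library totals). Apob was higher (log2 change 0.36), and Cps1 (-0.95) and Ass1 (-0.75) were lower. In the edgeR test described below (adjusted p under 0.05), 7.35% of all tested genes were higher and 7.09% lower, the shares to set beside each marker count here. On the second principal component of all genes (17.0% of the variance) Alb/MDA-9 3 lay far from the rest, and estimates of named genes that moved by over 1.5 times without it are also given without it. Mouse Sdcbp measured 172 ± 6.94 CPM for WT against 175 ± 5.66 CPM (SD, n = 3), which does not check the genotype labels because the transgene is human. Summed levels of 10 markers each of Kupffer, endothelial and stellate cells were 394 to 410, 263 to 287 and 293 to 314 CPM in WT and 224 to 386, 200.5 to 224 and 196 to 263 CPM in Alb/MDA-9. Of these markers 7, 5 and 5 were lower, against 7.09% of all tested genes. Of the same markers 0 were higher, and 0 had no reads in all libraries. The stellate count was 2 without WT 1, without WT 3 or at a filter of 10 CPM, and 3 without WT 2 or Alb/MDA-9 2, and the endothelial count was 3 without Alb/MDA-9 2. Cd68 made up most of the Kupffer sum and Reln was the largest part of the stellate sum, and neither was counted as lower. Cd68 had 262, 267 and 284 CPM in WT 1 to 3 and 322, 284 and 137 CPM in Alb/MDA-9 1 to 3. For Reln these were 143, 148 and 156 CPM and 168, 146 and 101 CPM. Summed cholangiocyte markers came to between 81.0 and 91.7 CPM in WT libraries and between 283 and 400 CPM in Alb/MDA-9 libraries. Of 8 such markers 6 were tested, with 3 higher (Spp1, Sox9 and Krt19) and 1 lower (Krt7). Spp1 alone went from 0.967 ± 0.343 to 215 ± 56.6 CPM (SD, n = 3), and the other 7 markers summed to 79.7 to 90.9 CPM against 112 to 121 CPM. The part of these cell types in the results below was not tested. Fewer cells of a type and less RNA per cell cannot be told apart in such libraries. White fat cells also make fatty acids. Summed white fat markers came to 96.8 to 107 CPM (WT) and 95.1 to 102 CPM (Alb/MDA-9). Of 10 such markers 4 were tested, and 1 of these (Pck1, also a hepatocyte gene) was lower. Fabp4 made up most of that sum, with 70.9 ± 3.24 CPM for WT against 82.5 ± 6.10 CPM. Cidec (9.001 and 7.35 CPM) and Lipe (8.14 and 7.34 CPM) were also measured, Adrb3 had 4 to 12 reads per library, and Adipoq, Lep, Retn, Cfd and Plin1 had at most 2.

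Of the 10 genes, all of which were tested, 0 were higher and 1, Thrsp, was lower in Alb/MDA-9 (quasi-likelihood test of edgeR with p adjusted over all genes by Benjamini-Hochberg, threshold 0.05). Among all 13296 genes tested the shares were 14.4% in either direction, 7.35% higher and 7.09% lower. The 10 genes' count is near that background. With DESeq2, voom or no low-count filter 1 gene was higher (Acacb) and 2 were lower (Thrsp and Elovl6). With library totals in place of TMM factors the split over all genes was 525 higher and 1622 lower, against 977 and 943. The estimates were above 0 for 4 genes and below 0 for 6, with a median log2 change of -0.10, against -0.0015 over all tested genes. At an unadjusted p under 0.05 there were 5 genes (Srebf1, Acacb, Elovl5, Elovl6 and Thrsp). The libraries of the genotypes did not overlap for 4 of the 10 genes (Srebf1, Fasn, Elovl5 and Thrsp), where the share over all tested genes was 33.6%. The 95% intervals of the changes, which are not adjusted for the number of genes, lay between 0.537-fold (the lower bound of Thrsp) and 1.76-fold (the upper bound of Acacb). No alternative setting turned the direction of any of the 10 estimates.

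**Figure D1:**
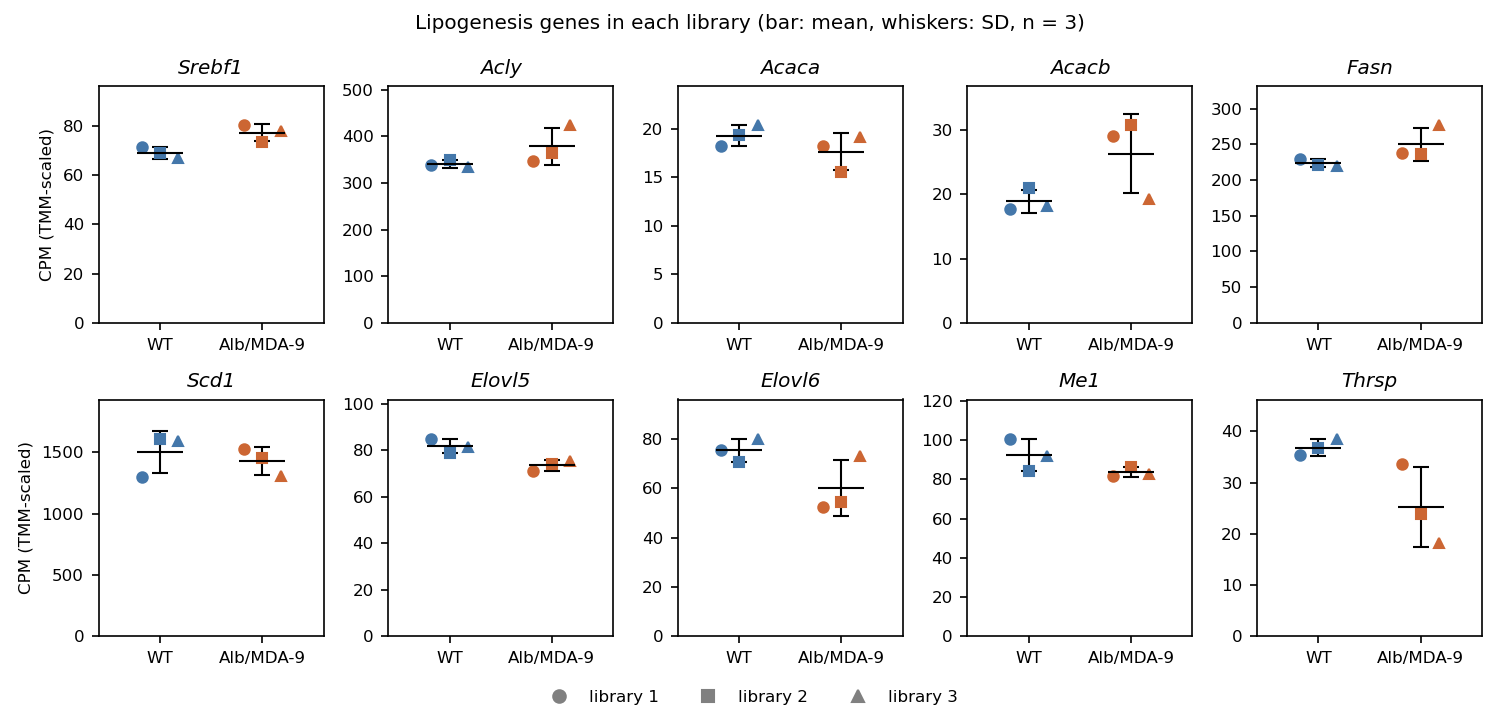
Level of each of the 10 genes in each library, in TMM-scaled CPM from 0 upwards; each point is a library, the bar is the mean and the whiskers are the SD of 3 libraries. Thrsp is the gene that passed the test, with its Alb/MDA-9 libraries from 18.2 to 33.6 CPM under the 35.3 CPM of the lowest WT library, and Acacb and Elovl6 show Alb/MDA-9 3 beside the WT points.

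Srebf1 (ENSMUSG00000020538, GRCm38 chromosome 11, 60199089 to 60222581, minus strand) encodes SREBP-1, the transcription factor that drives most genes of the pathway. It had 71.5, 68.8 and 66.7 CPM in WT 1 to 3 and 80.1, 73.4 and 78.0 CPM in Alb/MDA-9 1 to 3. Every Alb/MDA-9 library lay above every WT library, by a small margin. The log2 change was 0.16 (SE 0.07, 1.12-fold, 95% interval 1.0045 to 1.24), and it did not pass the test (edgeR adjusted p = 0.161).

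Thrsp (ENSMUSG00000035686, chromosome 7, 97412938 to 97417730, minus strand) had 35.3, 36.7 and 38.5 CPM in WT 1 to 3 and 33.6, 23.9 and 18.2 CPM in Alb/MDA-9 1 to 3. The Alb/MDA-9 libraries were spread widely, with library 1 just under the WT values and library 3 lowest. From 36.9 ± 1.59 CPM, Thrsp fell to 25.2 ± 7.77 CPM (SD, n = 3), which is a log2 change of -0.54 with an SE of 0.16 (0.687-fold; 95% interval 0.537 to 0.878, edgeR adjusted p = 0.0438). It lost the call without WT 1 (adjusted p = 0.0949), WT 2 (0.115), WT 3 (0.118) or Alb/MDA-9 2 (0.150). Without Alb/MDA-9 3 the log2 change was -0.36 (adjusted p = 0.0487).

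Acly (ENSMUSG00000020917, chromosome 11, 100476353 to 100528000, minus strand) had 338, 350 and 334 CPM in WT 1 to 3 and 348, 365 and 423 CPM in Alb/MDA-9 1 to 3. The groups overlapped, and Alb/MDA-9 3 was the highest library. The log2 change was 0.15 (SE 0.08, edgeR adjusted p = 0.238), with a 95% interval of 0.985-fold to 1.26-fold, and 0.07 without Alb/MDA-9 3.

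Fasn (ENSMUSG00000025153, chromosome 11, 120805846 to 120824547, minus strand), which encodes the multidomain synthase, had 229.8, 221 and 219 CPM in WT 1 to 3 and 237, 236 and 276 CPM in Alb/MDA-9 1 to 3. All Alb/MDA-9 libraries were above the WT ones, and library 3 was again highest. The estimate for Fasn was 0.16 on the log2 scale (SE 0.08, edgeR adjusted p = 0.196), with a 95% interval of 0.995-fold to 1.26-fold, and 0.08 without Alb/MDA-9 3.

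Acly and Fasn had the most similar profiles of the 45 pairs among the 10 genes. The root mean square difference of their log2 CPM, each centred on its own mean over the 6 libraries, was 0.04. Next were Elovl5 with Me1 (0.05) and Srebf1 with Fasn (0.08), and the least alike were Acacb with Thrsp (0.55). These distances describe 6 libraries that share 2 genotypes, and carry no test.

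The 250 bases before the RefSeq start site (GRCm38.p6, minus strand for all 4) are shown for the closest pair, for Srebf1 at the RefSeq start farthest downstream of its 3, and for Thrsp, which passed the test. They are written 5′ to 3′, with capitals marking a CCAAT box (CCAAT) or a GC box (GGGCGG) on either strand, the sites of the factors NF-Y and Sp1, which are known to act beside SREBP.
Fasn, chr11:120824548-120824797: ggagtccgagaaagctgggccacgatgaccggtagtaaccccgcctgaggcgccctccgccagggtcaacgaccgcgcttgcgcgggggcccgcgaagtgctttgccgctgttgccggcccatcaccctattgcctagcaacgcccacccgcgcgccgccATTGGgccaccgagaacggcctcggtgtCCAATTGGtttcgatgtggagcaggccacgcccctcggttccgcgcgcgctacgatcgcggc
Acly, chr11:100528001-100528250: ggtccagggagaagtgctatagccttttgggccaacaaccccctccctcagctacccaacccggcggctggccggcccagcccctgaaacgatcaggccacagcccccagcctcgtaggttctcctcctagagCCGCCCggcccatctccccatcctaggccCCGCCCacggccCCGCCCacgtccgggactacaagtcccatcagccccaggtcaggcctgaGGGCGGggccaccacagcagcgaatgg
Srebf1, chr11:60210472-60210721: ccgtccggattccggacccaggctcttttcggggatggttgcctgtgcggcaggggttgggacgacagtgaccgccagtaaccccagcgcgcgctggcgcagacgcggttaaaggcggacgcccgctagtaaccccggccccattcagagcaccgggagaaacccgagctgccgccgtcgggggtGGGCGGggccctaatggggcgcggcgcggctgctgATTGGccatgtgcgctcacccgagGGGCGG
Thrsp, chr7:97417551-97417800: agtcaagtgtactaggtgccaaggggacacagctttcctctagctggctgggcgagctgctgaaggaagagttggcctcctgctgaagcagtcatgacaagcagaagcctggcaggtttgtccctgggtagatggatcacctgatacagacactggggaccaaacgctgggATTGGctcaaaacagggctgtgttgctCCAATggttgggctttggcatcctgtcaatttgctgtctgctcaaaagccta
The Fasn stretch held 3 CCAAT matches, a pair of which overlap on opposite strands, and 0 GC boxes. The Acly stretch held 0 CCAAT matches and 4 GC boxes. The Srebf1 stretch shown held 1 and 2, and Thrsp held 2 and 0. At its other RefSeq starts Srebf1 held 1 and 0, and 0 and 2. RefSeq windows were found for 9 of the 10 genes, 12 windows in all. A CCAAT match was in 7 of these 12 windows and in 33.9% of all 32851 promoter windows of that length, and a GC box in 4 of 12 and in 32.7%. The E-box letters CACGTG were in 1 of 12 (Elovl5) and in 6.02% of all, and the sterol regulatory element letters TCACNCCAC in 0 of 12 and in 1.05%. A match describes these letters and is not a measured binding site.

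Acaca and Acacb encode the cytosolic and the mitochondrial-surface acetyl-CoA carboxylase; malonyl-CoA made by the latter is known to restrain fatty acid oxidation. Acacb (ENSMUSG00000042010, chromosome 5, 114146535 to 114250761, plus strand) had 17.7, 20.97 and 18.2 CPM in WT 1 to 3 and 29.1, 30.7 and 19.3 CPM in Alb/MDA-9 1 to 3. Alb/MDA-9 1 and 2 were above all WT libraries, and Alb/MDA-9 3 lay among them. Acacb had a log2 change of 0.48 (SE 0.15, 95% interval 1.11-fold to 1.76-fold), and it did not pass the test (edgeR adjusted p = 0.0563). Without Alb/MDA-9 3 it was 0.66 and passed (adjusted p = 0.000545). It also passed with DESeq2 (adjusted p = 0.0260), voom (0.0109) and no low-count filter (0.00116).

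Acaca (ENSMUSG00000020532, chromosome 11, 84129672 to 84401651, plus strand) had 18.2, 19.3 and 20.4 CPM in WT 1 to 3 and 18.3, 15.5 and 19.1 CPM in Alb/MDA-9 1 to 3. The groups overlapped, with an estimate of -0.13 on the log2 scale (SE 0.11, edgeR adjusted p = 0.500) and a 95% interval of 0.773-fold to 1.08-fold. The level of Acaca is uncertain. The processed pseudogene Gm5182 is 99.2% identical to its longest transcript over 6118 bases, and reads that align to both places are left out of the counts. Gm5182 itself held 3 to 9 reads per library. Without Alb/MDA-9 2 the estimate for Acaca was -0.05.

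Me1 (ENSMUSG00000032418, chromosome 9, 86581371 to 86695953, minus strand) had 100.5, 84.2 and 91.8 CPM in WT 1 to 3 and 81.9, 86.4 and 82.4 CPM in Alb/MDA-9 1 to 3. The groups overlapped, with WT 1 highest, and without WT 1 the estimate below was -0.07. The log2 change was -0.14 (SE 0.08, edgeR adjusted p = 0.264), with a 95% interval of 0.806-fold to 1.02-fold. Me1 also has near-identical copies, of which the longest match is the processed pseudogene Gm7049 (98.5% over 1638 bases), with 0 to 5 reads per library.

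Scd1 (ENSMUSG00000037071, chromosome 19, 44394455 to 44407879, minus strand), the main stearoyl-CoA desaturase of liver, had 1302, 1609 and 1593 CPM in WT 1 to 3 and 1531, 1457 and 1308 CPM in Alb/MDA-9 1 to 3. The groups overlapped. Leaving out 1 library gave -0.16 without WT 1, -0.12 without Alb/MDA-9 1, -0.02 without WT 2 or WT 3 and -0.0077 without Alb/MDA-9 3. With all libraries its estimate of -0.07 on the log2 scale (SE 0.10, edgeR adjusted p = 0.691) had a 95% interval of 0.826-fold to 1.10-fold.

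Elovl6 (ENSMUSG00000041220, chromosome 3, 129532355 to 129638495, plus strand) had 75.3, 70.7 and 79.9 CPM in WT 1 to 3 and 52.6, 54.3 and 73.0 CPM in Alb/MDA-9 1 to 3. Alb/MDA-9 1 and 2 were below all WT libraries, and Alb/MDA-9 3 lay within the WT range. The log2 change was -0.33 (SE 0.11, 95% interval 0.672-fold to 0.942-fold), which did not pass the test (edgeR adjusted p = 0.0719). Without Alb/MDA-9 3 it was -0.50 and passed (adjusted p = 0.000511). It also passed with library totals (0.0312), DESeq2 (0.0418), voom (0.00779) and no low-count filter (0.00228). In 9 of 15 alternatives Elovl6 did not pass, among them leaving out any other library (edgeR adjusted p of up to 0.247). Elovl6 has a near-identical processed pseudogene, Gm11295 (97.4% over 805 bases), with 0 reads in all libraries.

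Elovl5 (ENSMUSG00000032349, chromosome 9, 77917364 to 77984519, plus strand) had 84.8, 78.9 and 81.1 CPM in WT 1 to 3 and 70.8, 74.2 and 75.2 CPM in Alb/MDA-9 1 to 3. Every Alb/MDA-9 library was below every WT library, by a small margin. Its log2 change was -0.15 (SE 0.07, 95% interval 0.811-fold to 0.998-fold, edgeR adjusted p = 0.170). With library totals it was -0.26 and passed (adjusted p = 0.0333), a setting that moved the median over all tested genes by -0.10 on the log2 scale.

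**Figure D2:**
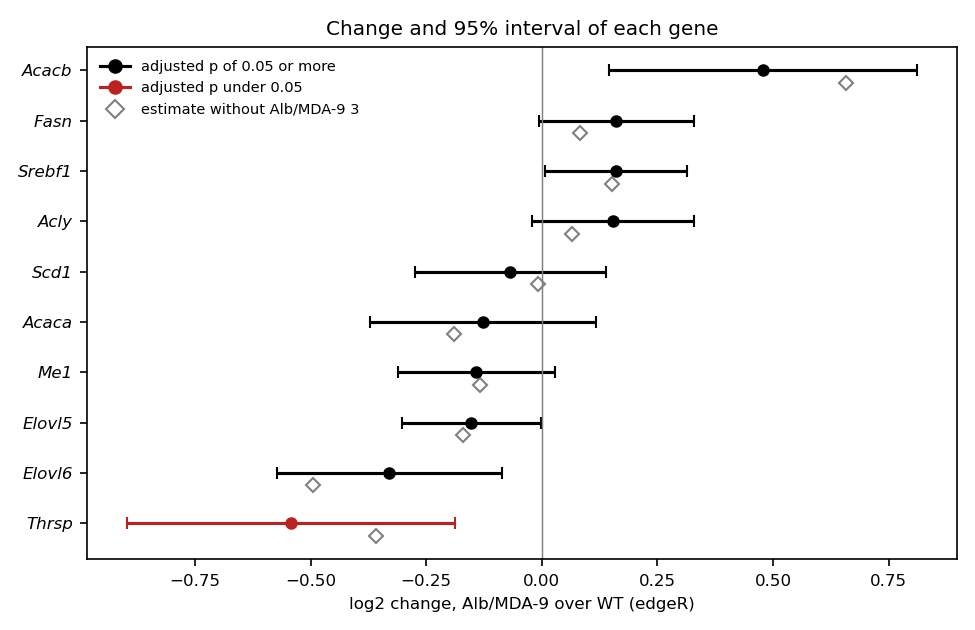
Log2 change of each gene in Alb/MDA-9 over WT from the edgeR model (circles) with its 95% interval, and the estimate without Alb/MDA-9 3 (open diamonds). Thrsp alone passed the test with all 6 libraries; without Alb/MDA-9 3 the estimates of Acacb (0.66) and Elovl6 (-0.50) lie farther from 0 and those of Acly (0.07), Fasn (0.08) and Thrsp (-0.36) nearer to it.

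Alb/MDA-9 3 was thus on a different side of its group from gene to gene. It was the highest Alb/MDA-9 library for Acly, Acaca, Fasn, Elovl5 and Elovl6 and the lowest for Acacb, Scd1 and Thrsp. Among the 3 Alb/MDA-9 libraries it lay farthest from the group mean for 5 of the 10 genes, and among the WT libraries WT 1 did so for 6.

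Levels were compared between genes as CPM per kilobase of merged exons. In WT, Scd1 was highest at 307 ± 35.3 CPM per kb (SD, n = 3), followed by Acly at 64.5 ± 1.58. Me1 (24.0 ± 2.12), Elovl5 (23.2 ± 0.842) and Fasn (20.4 ± 0.516) came next, and the first pair did not differ beyond their spread. Thrsp had 16.8 ± 0.728 CPM per kb, Srebf1 12.3 ± 0.422 and Elovl6 11.7 ± 0.715, the last pair again within their spread. The carboxylases were lowest, with 1.97 ± 0.185 for Acacb and 1.13 ± 0.0623 for Acaca, whose merged exons (17074 bases) are much longer than its longest transcript (9513 bases). Per kilobase of the longest transcript, Acaca (2.03 ± 0.112) and Acacb (2.15 ± 0.202) did not differ beyond their spread. On either scale the counts of Acaca leave out reads that also align to Gm5182, so its level and its place beside Acacb are uncertain. On that scale Thrsp (26.3 ± 1.14) stood above Fasn (22.2 ± 0.563) in WT, the reverse of their order per kilobase of merged exons, and Elovl5 (29.3 ± 1.07) and Me1 (27.996 ± 2.48) remained within their spread. In Alb/MDA-9 the same genes were at the top and the bottom, with 293 ± 23.2 CPM per kb for Scd1, 71.8 ± 7.46 for Acly, 2.74 ± 0.640 for Acacb and 1.03 ± 0.1101 for Acaca. Fasn (22.8 ± 2.10) ranked above Me1 (21.7 ± 0.635) there by its mean, and the libraries of these genes overlapped. Those of Elovl5 (20.8 ± 0.649) reached from 20.1 to 21.4 CPM per kb, under those of Fasn at 21.55 to 25.2.

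**Figure D3:**
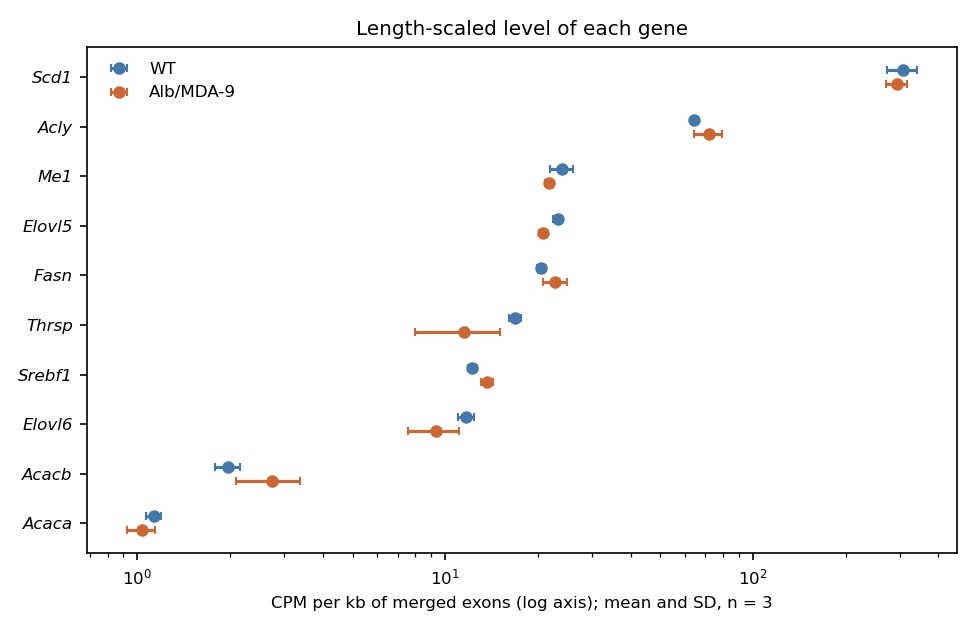
Level of each gene in CPM per kilobase of merged exons on a log axis, as the mean and SD of 3 libraries per genotype. Scd1 stands at 307 CPM per kb in WT and 293 in Alb/MDA-9, and Acacb and Acaca are lowest in both. The level of Acaca is uncertain, as reads shared with the pseudogene Gm5182 are left out.

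Of 24 genes that control the pathway 23 were tested, with 1 higher and 1 lower (8.70%, against 14.4% of all tested genes) and a median log2 change of -0.05. With library totals 6 were lower. Insig1, which encodes a sterol sensor that holds SREBP in the endoplasmic reticulum and is itself an SREBP target, was higher, with 101 ± 7.34 CPM against 85.6 ± 3.04 CPM (SD, n = 3), a log2 difference of 0.24 (edgeR adjusted p = 0.0484). It did not pass in 11 of 15 alternatives, among them each left-out library but Alb/MDA-9 1 (adjusted p = 0.101 to 0.158) and library totals (0.272). Rxra, the partner of LXR and other nuclear receptors, fell from 98.8 ± 0.372 to 83.6 ± 4.41 CPM (log2 change -0.24, edgeR adjusted p = 0.0356). Leaving out WT 1, WT 2, WT 3 or Alb/MDA-9 2 removed that call (adjusted p = 0.0775 to 0.142). Without Alb/MDA-9 1 the regulators counted 2 higher and 3 lower, and without any 1 WT library or Alb/MDA-9 2 they counted 0 and 0.

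The other central regulators did not pass the test. Mlxipl levels were 166 ± 4.52 CPM for WT against 149 ± 0.822 CPM (SD, n = 3; log2 change -0.16, edgeR adjusted p = 0.128), and with library totals it passed (-0.26, adjusted p = 0.0185). The SREBP escort gene Scap had 90.6 ± 2.62 and 85.1 ± 4.78 CPM (log2 change -0.09, and -0.04 without Alb/MDA-9 1). Insig2 had 173 ± 2.67 and 157 ± 21.002 CPM, and passed without Alb/MDA-9 1 (log2 change -0.25, adjusted p = 0.0467), whereas without Alb/MDA-9 3 the change was -0.07. Nr1h3, which encodes the nuclear receptor LXR-alpha, an activator of Srebf1, had 49.1 ± 0.619 and 42.0 ± 2.07 CPM (adjusted p = 0.0628), and passed with upper-quartile factors, library totals or the 10 CPM filter. Mid1ip1, the paralogue of Thrsp, had 56.5 ± 0.611 and 61.7 ± 1.19 CPM (log2 change 0.13, adjusted p = 0.243). Mid1ip1 was thus slightly above WT in Alb/MDA-9 by its estimate, whereas Thrsp fell; the difference between both changes was not tested.

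Among 20 genes that supply citrate, acetyl-CoA, NADPH and sugar carbon, 1 rose and 3 fell (20%, against 14.4% of all tested genes). Their median log2 change was -0.06. Pklr, the liver pyruvate kinase gene and a ChREBP target, had 70.7, 76.8 and 75.7 CPM in WT 1 to 3 and 103, 124 and 131 CPM in Alb/MDA-9 1 to 3. It rose by 0.68 on the log2 scale with an SE of 0.09 (edgeR adjusted p = 0.000334). Khk, the fructokinase gene, fell from 92.4 ± 6.75 CPM to 62.2 ± 8.90 CPM (SD, n = 3), a change of -0.57 on the log2 scale (SE 0.10, edgeR adjusted p = 0.00249). For Pklr and Khk the libraries of the genotypes did not overlap. Gckr, a regulator of sugar phosphorylation, fell from 91.7 ± 2.34 to 75.4 ± 3.55 CPM, which no longer passed when WT 2, WT 3 or Alb/MDA-9 2 was left out (adjusted p = 0.0687 to 0.0857).

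Slc25a1 and G6pdx did not pass the test. Slc25a1, the mitochondrial citrate exporter gene, had 241 ± 16.5 and 286 ± 21.8 CPM (log2 change 0.24, edgeR adjusted p = 0.0599). It passed without WT 1 (0.30, adjusted p = 0.0471) or Alb/MDA-9 1 (0.30, adjusted p = 0.0351). With all libraries it passed with DESeq2 (adjusted p = 0.0333), voom (0.0116) and no low-count filter (0.0370). In each of these settings the number of rises in the list was 2. G6pdx, the first enzyme gene of the pentose phosphate pathway, had 26.3 ± 0.904 and 29.8 ± 3.63 CPM (log2 change 0.18, and 0.08 without Alb/MDA-9 3).

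Enzymes that modify polyunsaturated and very long chains changed in both directions. Of 20 other elongases, desaturases and elongation cycle enzymes 17 were tested, of which 4 rose and 3 fell (41.2% of those tested, against 14.4% of all tested genes). The median of their log2 changes was 0.05. The list was chosen with earlier results of these data known, and its share carries no test. Fads2, the delta-6 desaturase gene, had 315, 359 and 352 CPM in WT 1 to 3 and 504, 551 and 586 CPM in Alb/MDA-9 1 to 3, up 0.68 on the log2 scale (SE 0.08, edgeR adjusted p = 0.000164). Its neighbour on chromosome 19, Fads1, the delta-5 desaturase gene, had 242, 222 and 222 CPM and 303, 316 and 293 CPM, up 0.41 on the log2 scale (SE 0.07, adjusted p = 0.00196). All Alb/MDA-9 libraries lay above all WT libraries for both genes.

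Elovl2 and Elovl3, which are elongases, fell. Elovl2, which lengthens polyunsaturated chains further than Elovl5, had 31.4, 28.7 and 25.3 CPM in WT 1 to 3 and 17.7, 16.5 and 14.03 CPM in Alb/MDA-9 1 to 3 (log2 change -0.82, SE 0.12, edgeR adjusted p = 0.000634). Elovl3, which makes very long saturated and monounsaturated chains, fell from 8.23 ± 1.49 to 4.201 ± 0.875 CPM (log2 change -0.97), which did not pass without WT 2 (adjusted p = 0.0515). Hacd3, a dehydratase of the elongation cycle, fell from 92.5 ± 0.756 to 75.9 ± 5.86 CPM, and Hsd17b12, a reductase of the same cycle, rose from 353 ± 4.33 to 425 ± 20.8 CPM. Neither passed when WT 1, WT 2, WT 3 or Alb/MDA-9 2 was left out (adjusted p = 0.0595 to 0.105 for Hacd3 and 0.0560 to 0.100 for Hsd17b12). Scd2, a paralogue of Scd1, rose from 24.6 ± 0.954 to 34.0 ± 7.71 CPM (log2 change 0.46). It did not pass without WT 1, WT 2, WT 3 or Alb/MDA-9 3 (adjusted p = 0.0709 to 0.114), and without Alb/MDA-9 3 its change was 0.26. Scd2 (0.107) and Hsd17b12 (0.138) did not pass with library totals either, nor Scd2 with upper-quartile factors (0.0594) or the 10 CPM filter (0.0589), these being adjusted p-values of edgeR. The number of rises in the list was 2 without WT 1, WT 2 or WT 3, and the number of falls was 1 without WT 2.

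Genes that use the new fatty acids moved in both directions. Of 20 genes of fatty acid activation and glycerolipid assembly 17 were tested, of which 2 rose and 5 fell (41.2%, against 14.4% of all tested genes). The median of their log2 changes was 0.01. As for the list before, the choice was made with earlier results of these data known, and the share carries no test. Acsl3, a long-chain acyl-CoA synthetase gene, rose from 31.2 ± 5.15 CPM to 49.7 ± 4.39 CPM (SD, n = 3), or by 0.67 on the log2 scale (edgeR adjusted p = 0.00203). Gpam, the mitochondrial acyltransferase gene that starts glycerolipid synthesis and an SREBP-1 target, rose from 197 ± 5.48 to 254 ± 30.03 CPM (log2 change 0.37, adjusted p = 0.0132), whereas Gpat3, which encodes an acyltransferase of the same step in the endoplasmic reticulum, fell from 24.4 ± 1.26 to 13.6 ± 0.817 CPM (log2 change -0.85, adjusted p = 0.000197). The phosphatidate phosphatase gene Lpin2 fell from 416 ± 7.79 to 282 ± 41.5 CPM (log2 change -0.56) and Lpin1 from 75.9 ± 2.04 to 54.1 ± 12.2 CPM (log2 change -0.49). Dgat2, which encodes the last enzyme of triglyceride synthesis, fell from 48.7 ± 1.67 to 37.9 ± 1.06 CPM (log2 change -0.36, adjusted p = 0.00633), and Mttp, which loads lipid onto apolipoprotein B, from 211 ± 5.06 to 176 ± 2.99 CPM (log2 change -0.26).

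Some of these calls depended on single libraries. Gpam did not pass without WT 1, WT 2 or Alb/MDA-9 2 (edgeR adjusted p = 0.0504 to 0.0756), Lpin1 without WT 1, WT 2 or WT 3 (0.0622 to 0.0805), and Mttp without WT 2, WT 3 or Alb/MDA-9 2 (0.0575 to 0.0770). Lpin1 had 62.2, 60.2 and 40.0 CPM in Alb/MDA-9 1 to 3, and without Alb/MDA-9 3 its change was -0.31 (adjusted p = 0.00850). Rises dropped to 1 with WT 1, WT 2 or Alb/MDA-9 2 left out, and falls to 3 with WT 2 or WT 3 left out. Pnpla3, a lipid remodelling gene under SREBP-1 control, had 10 to 25 reads per library, with 0.756 ± 0.187 and 1.26 ± 0.216 CPM (log2 change 0.72, SE 0.37, adjusted p = 0.226).

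**Figure D4:**
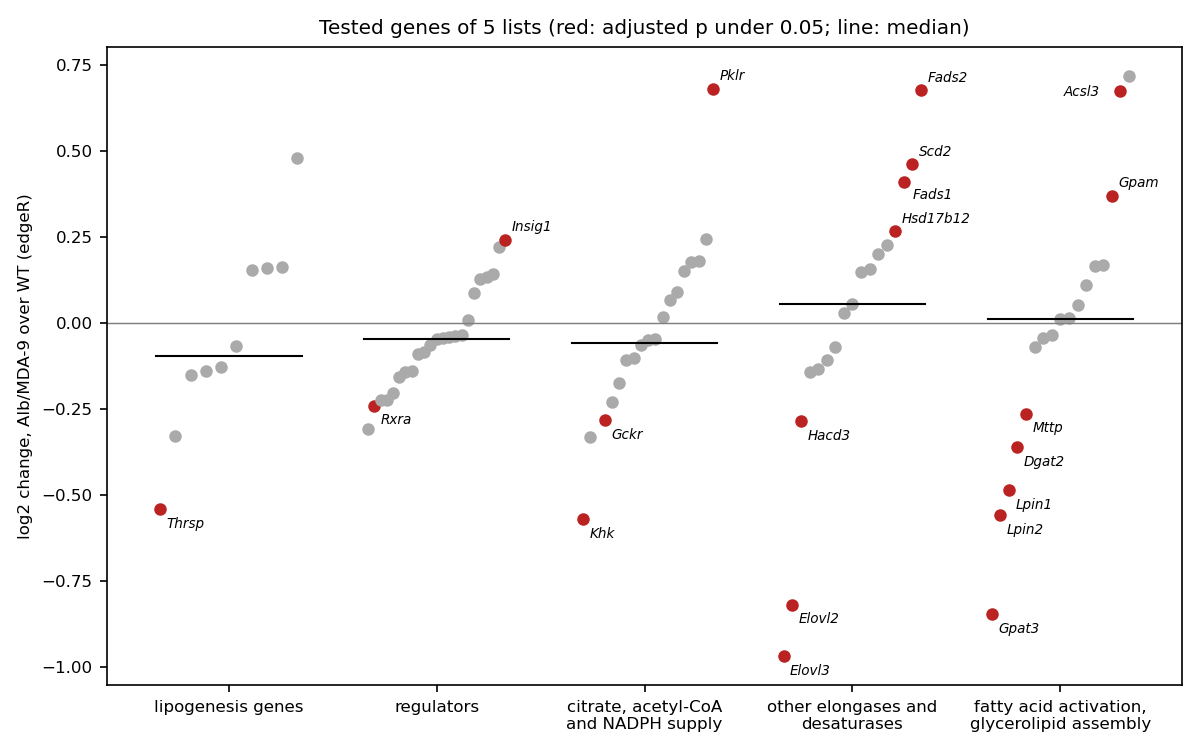
Log2 change in Alb/MDA-9 over WT of the 10 lipogenesis genes and of the tested genes reported here from 4 lists around them; red points have an edgeR adjusted p under 0.05 and black lines mark the medians of the whole lists. The lipogenesis genes hold 1 red point of 10 and the regulators 2 of 23, while Fads2, Pklr and Acsl3 lie between 0.67 and 0.68 and Elovl3 lies at -0.97.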

How the data were processed

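RNA was sequenced from 3 WT and 3 Alb/MDA-9 hepatocyte libraries (TruSeq kit, HiSeq3000, per the labels' protocols). The deposited tables hold raw read counts per gene, which per the submitters' processing notes come from Trim Galore 0.6.6 and STAR 2.7.9a on mm10/GRCm38; FastQC 0.11.2 and edgeR 3.18.1 are named too. Annotation release and options: not given in the sources used here. The counts are of uniquely aligned reads over a single gene, so near-identical copies lose reads. Unmapped (9.22 to 10.4%), multimapping (18.7 to 20.2%), outside-gene (4.90 to 6.01%) and ambiguous reads (0.791 to 0.835%) were left out.

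The reverse-strand count column was used (96.9 to 97.2% of stranded reads). Names and coordinates came from GENCODE M21 (GRCm38), which held 55227 of 55487 identifiers; copies were found with BLAST at 95% identity over 200 bases. Genes passing filterByExpr (minimum count 10) were scaled by TMM and tested with edgeR 4.0.16 in R 4.3.3 (quasi-likelihood F test, no covariates, 4 residual degrees of freedom), with Benjamini-Hochberg adjustment over 13296 genes at 0.05, after a test on simulated data. Alternatives used limma 3.58.1 and DESeq2 1.42.0. Named pathway genes are those that passed, up to 8 per list by p, plus 14 chosen for their role; some of these are not reported here. The genes and lists were chosen with earlier results of these data known.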

Additional observations from a re-analysis of the deposited data

How the results depend on the processing

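All 39 log2 changes recomputed kept their direction in up to 15 alternatives; 2 genes (Elovl3, Pnpla3) were not tested at the filter of 10 CPM in 3 libraries. Of the 20 pathway genes called beside the 10 lipogenesis genes, 10 were called in every alternative, among them Pklr, Khk, Fads2, Fads1, Elovl2, Gpat3, Lpin2, Acsl3 and Dgat2. Lipogenesis genes higher numbered 1 (Acacb) with DESeq2, voom with quality weights, no low-count filter or the replicate block, and 0 to 1 leaving out a library. Those lower numbered 3 with library totals, 2 with DESeq2, voom, no filter or the replicate block, and 0 to 2 leaving out a library. Over all genes, 525 were higher and 1622 lower with library totals, and 503 to 1178 higher and 515 to 1208 lower leaving out a library. Regulators higher numbered 0 with library totals, upper-quartile factors, no filter, the 10 CPM filter, either-strand counts or the replicate block, 2 with voom, and 0 to 2 leaving out a library. Regulators lower numbered 6 with library totals, 3 with upper-quartile factors, 2 with no filter or the 10 CPM filter, 0 with the replicate block, and 0 to 3 leaving out a library. Supply genes higher numbered 2 with DESeq2, voom or no filter, and 1 to 2 leaving out a library. Other elongases and desaturases higher numbered 2 with library totals and 2 to 4 leaving out a library, and those lower 1 to 4. Glycerolipid genes higher numbered 1 to 2 and lower 3 to 5 leaving out a library. With the replicate block Acacb (adjusted p = 0.0395) and Elovl6 (0.0310) passed, Rxra (0.0663) and Insig1 (0.0841) did not, 3 stellate cell markers were lower, and 775 genes were higher and 826 lower. Same-numbered libraries of both genotypes did not deviate together (correlations -0.0408, -0.0001 and -0.0619). These correlations cannot tell whether same-numbered libraries were prepared together. The ratio of Scd1 to Acaca per kilobase in WT was 271 and became 152.9 with the longest transcript, whose length for Acaca is shorter. Both ratios rest on counts of Acaca that leave out reads shared with Gm5182. Where a setting changed a call, the cause was not tested. Among the named pathway genes Pnpla3 had the fewest reads.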

Other observations

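Over 11165 other genes with a mean log2 CPM above 1, the genes whose centred profile over the 6 libraries was closest to that of Srebf1 were Cdc14b, Reep5 and Atxn7l3b, with root mean square differences of 0.018, 0.020 and 0.025 on the log2 scale. Cdc14b, a phosphatase gene, had 31.6, 30.6 and 29.5 CPM in WT 1 to 3 and 35.4, 33.02 and 33.7 CPM in Alb/MDA-9 1 to 3. The log2 changes of Cdc14b, Reep5 and Atxn7l3b were 0.15, 0.14 and 0.17, and none passed the test (edgeR adjusted p = 0.240, 0.243 and 0.120). Fasn was the closest of the lipogenesis genes to Srebf1, at 0.075.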
